A study of Mus musculus with 48 samples.

Results

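The 7 genes used here as markers of CA3 and CA2 pyramidal neurons, Iyd, Plekhg1, Necab2, Pcp4, Rgs14, Amigo2 and Map3k15, were followed across 48 RNA-seq libraries of the mouse hippocampus. They were taken by name from the 24421 genes of the deposited count table, and 7 of 7 were present and passed the filter on low counts in each of the 12 comparisons made. The 7 genes and the marker lists were chosen with earlier results of these data known. Each library came from the CA tissue of 1 male mouse, dissected after the dentate gyrus had been taken off, and the study had picked its samples with RT-qPCR readings of tissue purity and of Arc and with the behaviour of the mice in the open field. Both mouse lines carried a floxed gene for the cannabinoid CB1 receptor, Cnr1. In the Glu-CB1 line Cre was driven by the nex locus, which is active in glutamatergic neurons of the dorsal telencephalon, and in the GABA-CB1 line by dlx5/6 elements, which are active in forebrain GABAergic neurons. The CB1-WT mice were littermates of the CB1-KO mice. Mice of 8 weeks by the labels were taken from the home cage (basal) or after a 5 min open field, an arena unfamiliar to the mouse. In the paper, the open field tissue was isolated 1 h after the exposure. In the Glu-CB1 line there were 5 WT and 7 KO mice in each state. In the GABA-CB1 line there were 6 WT and 6 KO mice in the basal state and, by the sample labels, 7 WT and 5 KO mice after the open field.

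The CA3 field receives the mossy fibres of the dentate gyrus and drives CA1 through the Schaffer collaterals. CA2 is a small field between them whose pyramidal cells resist the usual forms of long-term potentiation at CA3 inputs and serve social memory. Rgs14, a scaffold that binds G proteins and small GTPases, is known for limiting plasticity in CA2, and Pcp4, a small regulator of calmodulin, and Amigo2, a membrane adhesion protein, mark the same cells. Map3k15 is a stress-pathway MAP kinase kinase kinase that is also used as a CA2 marker. Iyd, which encodes iodotyrosine deiodinase, is used as a CA3 marker, Plekhg1 encodes a guanine nucleotide exchange factor, and Necab2 encodes a neuronal calcium-binding protein. In bulk tissue, fewer cells of a type and less RNA per cell cannot be told apart, and a CA dissection that holds more of one field holds less of another.

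Iyd and Plekhg1 lie next to each other. In the mm10 coordinates of the count table, Iyd spans 3540279 to 3554877 of chromosome 10 and Plekhg1 spans 3740377 to 3967302 on the same plus strand, 185500 bases further on, with 0 genes of the table between them. RefSeq promoter windows on GRCm38.p6 were at hand for 5 of the 7 genes, Rgs14 and Map3k15 being the ones without. Those of Iyd and Plekhg1 are shown because these neighbours gave the largest KO differences below. Each is on the plus strand. That of Iyd, chr10:3540024-3540239, ends before the first annotated exon base, that of Plekhg1, chr10:3872417-3872666, ends before the RefSeq start, and capitals mark CANNTG, the E-box letters, searched on both strands.
Iyd: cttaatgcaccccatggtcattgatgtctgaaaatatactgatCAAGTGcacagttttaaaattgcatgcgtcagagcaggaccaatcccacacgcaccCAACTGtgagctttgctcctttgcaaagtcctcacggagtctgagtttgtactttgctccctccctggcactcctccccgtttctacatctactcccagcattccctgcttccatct
Plekhg1: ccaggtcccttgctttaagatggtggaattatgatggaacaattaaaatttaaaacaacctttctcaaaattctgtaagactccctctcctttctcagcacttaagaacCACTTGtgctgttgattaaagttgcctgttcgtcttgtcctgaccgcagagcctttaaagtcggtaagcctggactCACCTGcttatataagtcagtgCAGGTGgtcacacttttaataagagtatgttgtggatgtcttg
The Plekhg1 window belongs to a start inside the gene as the count table defines it. The shown stretch of Iyd held 2 E-box matches in 216 bases and that of Plekhg1 held 3 in 250 bases, counts that 26.8% and 12.2% of 32851 promoters reached or passed over the same lengths. Over the full windows of 300 bases, CANNTG was found in 4 of the 5 promoters and in 72.3% of all promoters. TATAAA was in 1 of 5 and 13.6% of all, GGGCGG in 2 of 5 and 35.7% of all, and TGACGTCA in 0 of 5 and 1.79% of all.

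The libraries held 25892654 to 34091080 counts with a median of 30975561. Cnr1, the targeted gene, had KO and WT libraries that did not overlap in any line and state. Its level ran from 338 to 412 CPM (counts scaled to library size by TMM) in Glu-CB1-WT basal against 208 to 248 in Glu-CB1-KO basal, and from 330 to 396 against 203 to 250 after the open field. In the GABA-CB1 line it ran from 310 to 391 against 141 to 159 basal, and from 337 to 393 against 101 to 156 after the open field. Among markers of other tissue, a list of 6 choroid plexus genes summed to 629 CPM in Glu-CB1-KO basal replicate 6, 1499 in GABA-CB1-WT basal replicate 3 and 4064 in GABA-CB1-KO open field replicate 4, against a median of 66.0 CPM over all libraries. In GABA-CB1-KO basal replicate 3, Rn45s, the 45S pre-ribosomal RNA, took 6.19% of the counts, where in other libraries the leading gene took at most 0.691%. These 4 libraries are named below where a result rests on them. Genes used as markers of neighbouring fields also had counts. The 10 CA1 markers in the table summed to 824 to 1216 CPM and the 12 dentate granule cell markers to 293 to 675 CPM, and no gene of either list was at 0 in all libraries. The dentate list was led by Dock10 and Stxbp6, at means of 82.8 and 79.5 CPM. Whether its sum stands for dentate tissue was not tested, and the paper did not detect the dentate marker TDO2 by RT-qPCR.

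Expressed per kilobase of exon, the only scale used here to set genes side by side, Pcp4 was the most abundant member at a mean of 81.6 CPM per kb over the 48 libraries. Rgs14 followed at 56.4 and Necab2 at 50.5, Amigo2 stood at 16.1, Iyd and Plekhg1 at 4.72 and 4.69, and Map3k15 was lowest at 1.52 CPM per kb. On that scale Necab2, Rgs14 and Pcp4 lay at percentiles 94.0, 94.8 and 96.9 of the genes with a count in any library, and Map3k15 at percentile 42.7. Counts behind these levels ran from 126 to 431 per library for Iyd and from 140 to 333 for Map3k15, while Rgs14 had 2896 to 5372, so the levels of Iyd and Map3k15 carry the largest counting error. Within groups, the pooled SD was 22.7% of the mean for Iyd and 11.1% for Plekhg1. Between the lowest and the highest library, Iyd differed 3.31-fold and Rgs14 1.49-fold.

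**Figure D1:**
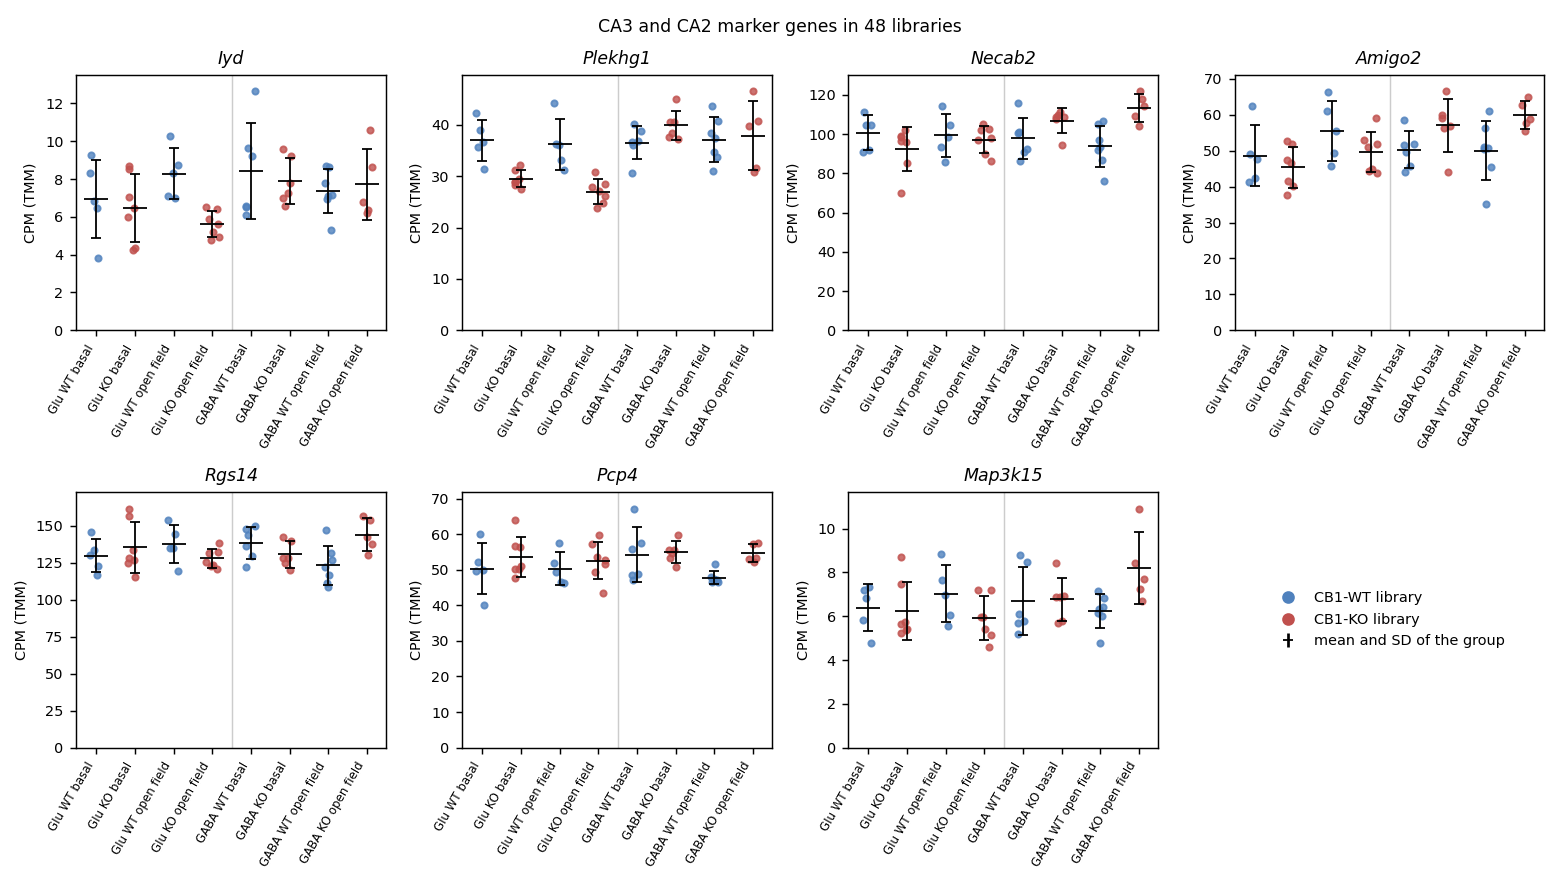
Level of each marker gene in CPM (y axis, TMM-scaled, starting at 0) in the 8 groups (x axis), 1 point a library, blue for CB1-WT and red for CB1-KO, with the group mean and SD in black. Plekhg1 sits lowest in both Glu-CB1-KO groups, with means of 29.5 and 27.01 CPM, and Iyd is lowest in Glu-CB1-KO after the open field, with a mean of 5.62 CPM.

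The group order of Plekhg1 had the 2 Glu-CB1-KO groups at the bottom. Its mean was 27.01 ± 2.36 CPM (SD, n = 7) in Glu-CB1-KO open field and 29.5 ± 1.64 (n = 7) in Glu-CB1-KO basal. The other 6 groups lay between 36.2 ± 4.95 (Glu-CB1-WT open field, n = 5) and 39.9 ± 2.87 (GABA-CB1-KO basal, n = 6). The step from the second to the third group was 1.74 pooled within-group SDs, while every other step in that order was at most 0.642 SDs. For the other 6 members, neighbouring groups in the order of means differed by less than 1 pooled SD throughout, and for all 7 members the ranges of neighbouring groups overlapped. In 1 test of any difference among the 8 groups (edgeR quasi-likelihood F test, Benjamini-Hochberg adjustment over 15570 genes), Plekhg1 was the 1 of 7 members that passed, with an adjusted p of 2.19e-05, where 5.06% of all genes tested passed. At an unadjusted p under 0.05 there were 4 members (Plekhg1, Amigo2, Necab2 and Iyd) against 19.3% of all genes. DESeq2's likelihood ratio test passed 3 members, and without Glu-CB1-WT basal replicate 1 edgeR passed Amigo2 as well (adjusted p = 0.0374). Shares of all genes are those of edgeR throughout, so counts of members called by DESeq2 stand without such a share.

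Plekhg1 was lower without CB1 in glutamatergic neurons. After the open field, the Glu-CB1-WT libraries gave 36.1, 31.2, 44.2, 36.2 and 33.2 CPM of Plekhg1, and the 7 Glu-CB1-KO libraries ran from 23.9 through a median of 27.03 to 30.9. The highest KO library was below the lowest WT library. The log2 fold change of Plekhg1, KO over WT, was -0.42 (SE 0.08, edgeR adjusted p = 0.0424). Basal libraries showed the same order with a small overlap. Glu-CB1-WT gave 38.9, 35.7, 31.4, 42.2 and 36.7 CPM of Plekhg1, and Glu-CB1-KO ran from 27.6 through 28.9 to 32.2, with 6 of 7 KO libraries below the lowest WT library. The log2 fold change of Plekhg1 was then -0.33 (SE 0.06), rank 7 of 15138 genes by p, and the edgeR adjusted p of 0.268 missed the threshold, while DESeq2 gave 0.00546. Of 12 fits that each left out 1 library, edgeR called Plekhg1 in 1, the fit without Glu-CB1-WT basal replicate 3 (log2 fold change -0.38, adjusted p = 0.0260). With the 24 libraries of the Glu-CB1 line in 1 fit and state as a covariate, a fit added after the data had been seen, Plekhg1 fell by 0.38 on the log2 scale (SE 0.05, edgeR adjusted p = 3.86e-04), the 1 member of 7 to pass where 0.274% of all genes passed.

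Iyd was lower in the same mutants after the open field. The Glu-CB1-WT libraries gave 8.29, 8.74, 7.11, 10.3 and 7.00 CPM of Iyd, and the 7 Glu-CB1-KO libraries ran from 4.75 through 5.64 to 6.51. The groups did not overlap. The log2 fold change of Iyd was -0.56 (SE 0.11, edgeR adjusted p = 0.0463). With the 24 libraries of the line in 1 fit it was -0.33 (SE 0.13, adjusted p = 0.511), and the call was also lost with all 48 libraries in 1 fit (-0.56, adjusted p = 0.377) and with the animal number range as a covariate (-0.53, adjusted p = 0.123). That range split the animal numbers in the labels of a line into low and high. WT and KO mice of the Glu-CB1 line were not evenly spread over it. In basal libraries the groups overlapped over most of their range. Glu-CB1-WT gave 6.85, 9.28, 3.82, 8.29 and 6.48 CPM of Iyd and Glu-CB1-KO ran from 4.24 through 6.49 to 8.70, with a log2 fold change of -0.10 (SE 0.21, edgeR adjusted p = 0.999). The difference between the states in the KO effect on Iyd was -0.46 (SE 0.25), with an unadjusted p of 0.0816 in the edgeR fit over 24 libraries and an adjusted p of 1.00, so the KO effect on Iyd was not shown to differ between states.

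Both calls in the Glu-CB1 open field comparison stood close to the threshold. They were 2 of 7 members, against 0.272% of 15078 genes tested. Because the members were chosen with earlier results of these data known, shares of all genes are no test of the set. At an unadjusted p under 0.05 the same 2 members stood against 6.97% of genes, and 2 of 7 members against 0.716% of genes had KO and WT libraries that did not overlap. DESeq2 also called both. Of 12 fits that each left out 1 library, edgeR called Iyd in 2 and Plekhg1 in 2, with fold changes of -0.62 to -0.47 for Iyd and -0.47 to -0.34 for Plekhg1 on the log2 scale. The largest adjusted p-values, 0.142 for Iyd and 0.112 for Plekhg1, came without Glu-CB1-WT open field replicate 4. Markers of other cells moved with this comparison. The CA1 sum ran from 824 to 1128 CPM in the 5 Glu-CB1-WT open field libraries and from 1000 to 1195 CPM in the 7 Glu-CB1-KO libraries. Of 10 CA1 markers, 8 were above 0 and 7 had an unadjusted p under 0.05. The thalamus and habenula markers summed to 110 to 129 against 98.7 to 118 CPM. Of 9 tested, 2 had an unadjusted p under 0.05, with Prkcd called lower. So did 4 of 10 subiculum and cortex markers, with Fezf2 called higher, and 3 of 5 mossy cell markers. Of 8 interneuron markers, 8 were above 0 and 6 had an unadjusted p under 0.05, with Npy called, and their sum ran from 711 to 868 CPM in WT and from 861 to 963 CPM in KO. Of 7 oligodendrocyte markers, 7 were below 0 and 4 had an unadjusted p under 0.05, with sums of 3637 to 4152 CPM in WT and 3402 to 3988 CPM in KO. With the CA1 sum as a covariate the fold changes were -0.51 for Iyd (adjusted p = 0.465) and -0.35 for Plekhg1 (adjusted p = 0.496), and with the thalamus and habenula sum -0.45 (adjusted p = 0.317) and -0.41 (adjusted p = 0.252). With the dentate granule cell sum as a covariate, a fit added after the data had been seen, both calls were kept. Iyd then gave -0.57 and Plekhg1 -0.42, each at an edgeR adjusted p of 0.0348. The part of the tissue makeup in both results was not tested beyond these fits.

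The other 5 members gave no call in the Glu-CB1 line. In basal libraries edgeR called 0 of 7 members, against 0.0198% of all genes, with 1 member (Plekhg1) against 3.57% of genes at an unadjusted p under 0.05, and DESeq2 called 1. None of the 7 had non-overlapping KO and WT libraries, against 0.205% of all genes. The log2 fold changes of the members ran from -0.33 to 0.09 with a median of -0.10, and after the open field from -0.56 to 0.06 with a median of -0.16. The median over all genes was 0.00 in both. After the open field Map3k15 gave -0.25 (SE 0.13), Amigo2 -0.16 (SE 0.09), Rgs14 -0.11 (SE 0.05), Necab2 -0.03 (SE 0.06) and Pcp4 0.06 (SE 0.07), with edgeR adjusted p-values from 0.757 to 0.999.

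**Figure D2:**
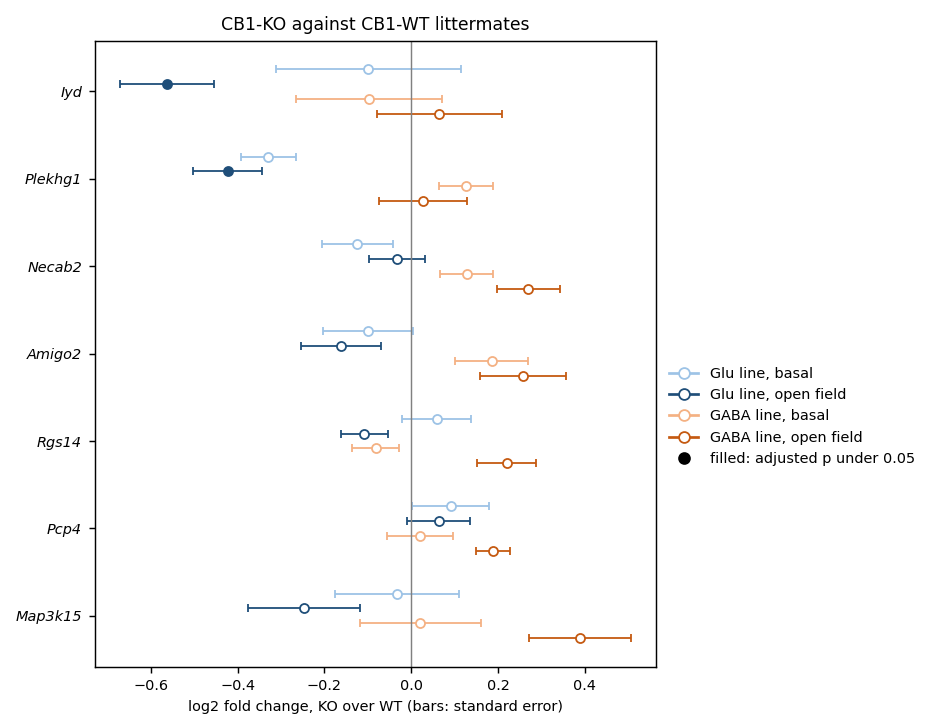
Log2 fold change of each marker gene, CB1-KO over CB1-WT (x axis, points, bars for the standard error), in 4 comparisons of line and state, with filled points for an edgeR adjusted p under 0.05. Iyd (-0.56) and Plekhg1 (-0.42) in the Glu-CB1 line after the open field are the 2 filled points, and the points of the GABA-CB1 line after the open field lie from 0.03 to 0.39.

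In the GABA-CB1 line the members lay on the other side of 0 after the open field. All 7 log2 fold changes were above 0, from 0.03 (Plekhg1) to 0.39 (Map3k15), with a median of 0.22 where the median over all genes was 0.00. edgeR called 0 of 7 members, against 0.0199% of all genes. At an unadjusted p under 0.05 there were 5 members (Pcp4, Necab2, Map3k15, Rgs14 and Amigo2), against 13.2% of all genes. DESeq2, which gave an adjusted p for only 5 of the 7 members here, called 2, Pcp4 (adjusted p = 0.00343) and Necab2 (adjusted p = 0.0308). The share of all genes above is that of edgeR, and none is given for DESeq2. All 7 stayed above 0 in 9 of the 11 alternative fits that gave a value for each of them and in 7 of 12 fits that left out 1 library. Without GABA-CB1-KO open field replicate 4, the choroid plexus-rich library, which had the highest Plekhg1 level of all 48 libraries at 46.5 CPM, Plekhg1 gave -0.06 (SE 0.10) and 6 of 7 members lay above 0.

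Markers of other cells moved in the same comparison. The 8 interneuron markers summed to 838 to 892 CPM in WT and 765 to 815 CPM in KO, with no overlap, and 7 of 8 were below 0, 5 at an unadjusted p under 0.05. The 5 microglia markers summed to 225 to 244.6 CPM in WT and 245.4 to 254 CPM in KO, also with no overlap, and 3 of 5 had an unadjusted p under 0.05. So did 3 of 6 striatum and septum markers and 3 of 9 thalamus and habenula markers, while edgeR called 0 genes of these 4 lists. Their part in the members' values was not tested beyond a fit with the thalamus and habenula sum, which left 7 of 7 above 0. Of 6 choroid plexus markers, 6 were above 0, with a median log2 fold change of 2.32 and their highest sum in KO replicate 4. At an unadjusted p under 0.05 there were 5, against 13.2% of all genes. Of the further markers of the members' own fields, 9 of 10 for CA2 and 10 of 14 for CA3 were above 0.

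Pcp4 separated most cleanly. The GABA-CB1-KO open field libraries gave 53.3, 52.9, 52.2, 57.2 and 57.6 CPM of Pcp4, and the 7 GABA-CB1-WT libraries ran from 46.6 through 47.3 to 51.6. Every KO library was above every WT library, the 1 member of 7 with no overlap, against 0.98% of all genes. The log2 fold change of Pcp4 was 0.19 (SE 0.04, edgeR adjusted p = 0.134). Necab2 gave 118, 109, 122, 104 and 114 CPM in the KO libraries and 76.1 to 106 with a median of 93.5 in the WT libraries, so that 4 of 5 KO libraries were above the highest WT library. Its log2 fold change was 0.27 (SE 0.07, edgeR adjusted p = 0.220). After subtraction of group means over the 48 libraries, Necab2 fell as the summed dentate granule cell markers rose (r = -0.71), and Pcp4 rose with them (r = 0.73). With that sum as a covariate, a fit added after the data had been seen, the fold change of Necab2 was 0.29 (SE 0.04, edgeR adjusted p = 0.0267). Pcp4 was not called in that fit. The dentate sum itself ran from 347 to 423 CPM in the KO and from 311 to 473 CPM in the WT libraries.

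Rgs14 gave 154, 157, 130, 142.5 and 138 CPM in the GABA-CB1-KO open field libraries and 109 to 147 with a median of 122 in the WT libraries, overlapping over part of the range. Its log2 fold change was 0.22 (SE 0.07, edgeR adjusted p = 0.253). Amigo2 gave 64.8, 62.8, 57.7, 55.4 and 58.9 CPM against 35.1 to 61.1 with a median of 50.7, a log2 fold change of 0.26 (SE 0.10, edgeR adjusted p = 0.315). Map3k15 gave 6.68, 8.43, 7.26, 10.9 and 7.68 CPM against 4.76 to 7.14 with a median of 6.35. The 10.9 CPM of Map3k15 came from the choroid plexus-rich replicate 4. The log2 fold change of Map3k15 was 0.39 (SE 0.12, edgeR adjusted p = 0.247) and, without that library, 0.26 (SE 0.10, adjusted p = 0.449). Iyd had 1 KO library above the highest WT library and overlapped otherwise, at 10.6, 6.78, 6.35, 6.20 and 8.65 CPM in the KO and 5.28 to 8.68 CPM in the WT libraries.

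At the basal state, edgeR called 0 of 7 members in the GABA-CB1 line, against 0.245% of all genes, and DESeq2 called 0. Amigo2 was the 1 member at an unadjusted p under 0.05, against 8.16% of all genes, with a log2 fold change of 0.19 (SE 0.08, edgeR adjusted p = 0.610). Its 6 KO libraries ran from 44.03 to 66.5 CPM with a median of 58.0 and its 6 WT libraries from 44.2 to 58.7 with a median of 50.7. The lowest of those KO values was the Rn45s-rich replicate 3, and without the libraries that stood apart the fold change of Amigo2 was 0.25 (SE 0.07, adjusted p = 0.410). None of the 7 had non-overlapping KO and WT libraries, against 0.696% of genes. Over both states, 24 libraries in 1 fit, edgeR called 0 of 7 members against 0.358% of all genes, with the smallest adjusted p for Necab2 (log2 fold change 0.20, SE 0.05, adjusted p = 0.0881).

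Whether the KO effect differed between the 2 lines was tested directly, as the KO effect in the Glu-CB1 line minus that in the GABA-CB1 line. In the basal state Plekhg1 differed, at -0.45 (SE 0.09, edgeR adjusted p = 0.0237), from log2 fold changes of -0.33 for Glu-CB1 and 0.13 (SE 0.06) for GABA-CB1. The GABA-CB1 libraries behind this had 30.7 to 40.2 CPM of Plekhg1 in WT and 37.3 to 44.98 CPM in KO. Plekhg1 was the 1 of 7 members called, against 0.279% of 15390 genes, and 2 members (with Necab2) stood at an unadjusted p under 0.05, against 8.56% of genes. DESeq2 called 1. The call of Plekhg1 held in 22 of 24 fits that left out 1 library, and was lost without Glu-CB1-WT basal replicate 1 or replicate 4, with a highest adjusted p of 0.0732. It was also lost with all 48 libraries in 1 fit (-0.46, adjusted p = 0.110) and with the animal number range as a covariate (-0.41, adjusted p = 0.0934).

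After the open field, the difference between the lines was below 0 for all 7 members, from -0.64 (Map3k15) and -0.63 (Iyd) to -0.13 (Pcp4), with a median of -0.42 where the median over all genes was 0.00. It stayed below 0 for all 7 in 12 alternative fits and in 24 fits that left out 1 library. edgeR called 0 of 7, against 0.568% of all genes, with 6 members at an unadjusted p under 0.05, against 10.8% of genes. DESeq2, for which no share of all genes is given, called 2, Map3k15 (adjusted p = 0.0493) and Rgs14 (adjusted p = 0.0420). The smallest edgeR adjusted p was 0.113, for Rgs14 (-0.33, SE 0.09), which was called without GABA-CB1-WT open field replicate 3 (adjusted p = 0.0313) or without Glu-CB1-WT open field replicate 2 (adjusted p = 0.0436). This contrast uses the same libraries as the KO comparisons above, and several members vary together between libraries, so the 7 values are not independent of each other. Averaged over both states in a fit of all 48 libraries, added after the data had been seen, the difference for Plekhg1 was -0.45 (SE 0.09, edgeR adjusted p = 0.00174), the 1 member called, where 0.732% of all genes were called. Necab2 gave -0.28 (SE 0.08, adjusted p = 0.0824) and Amigo2 -0.35 (SE 0.11, adjusted p = 0.132).

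**Figure D3:**
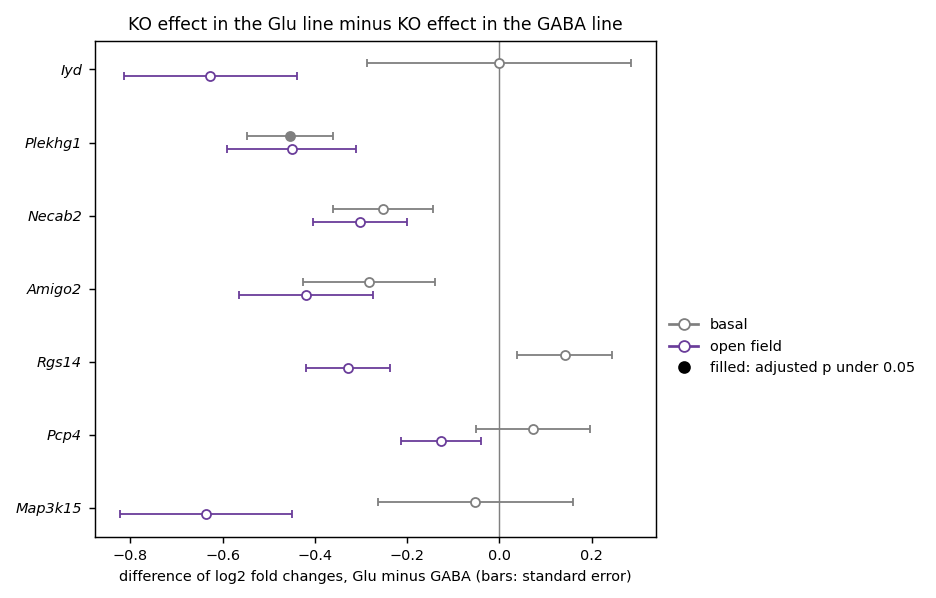
KO effect in the Glu-CB1 line minus KO effect in the GABA-CB1 line for each marker gene (x axis, difference of log2 fold changes, bars for the standard error), basal in grey and after the open field in purple, with filled points for an edgeR adjusted p under 0.05. Plekhg1 basal (-0.45) is the 1 filled point, and the 7 open field points lie from -0.64 to -0.13.

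The open field itself moved none of these genes past the threshold. With genotype as a covariate, edgeR called 0 of 7 members in the Glu-CB1 line, where 1.8% of all genes were called, and 0 of 7 in the GABA-CB1 line, where 0.963% were called. DESeq2 called 0 in both. In each line 1 member reached an unadjusted p under 0.05, Amigo2 in the Glu-CB1 line at a log2 fold change of 0.16 (SE 0.07) and Pcp4 in the GABA-CB1 line at -0.10 (SE 0.05), against 13.9% and 12.1% of all genes. The fold changes of the members, open field over basal, ran from -0.09 to 0.16 and from -0.12 to 0.07 on the log2 scale. For the difference of the KO effect between states, edgeR and DESeq2 called 0 of 7 members in either line, and edgeR called 0% of all genes in either line. At an unadjusted p under 0.05 it was 0 members against 2.47% of genes in the Glu-CB1 line and 1 member, Rgs14 at 0.30 (SE 0.09, edgeR adjusted p = 0.211), against 14.6% of genes in the GABA-CB1 line. Between the CB1-WT mice of the 2 lines, edgeR and DESeq2 called 0 of 7 members, edgeR called 0% of all genes, and 0 members reached an unadjusted p under 0.05, against 3.86% of genes. The fold changes, GABA-CB1-WT over Glu-CB1-WT, ran from -0.06 to 0.04. Line, breeding colony and library numbers cannot be told apart in that comparison.

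Few of the other genes used as markers of these fields passed the test. Of 14 further CA3 markers tested, edgeR called 0 in the Glu-CB1 line in either state, 1 in the GABA-CB1 basal comparison and 0 after the open field. At an unadjusted p under 0.05 there were 1 and 6 in the Glu-CB1 line, basal and open field, against 3.57% and 6.97% of all genes. In the GABA-CB1 line there were 2 and 2, against 8.16% and 13.2% of all genes. The called gene was Bok, an apoptosis regulator of the BCL2 family, at 44.3 to 58.1 CPM in the 6 WT and 31.4 to 39.1 CPM in the 6 KO libraries, a log2 fold change of -0.52 (SE 0.07, edgeR adjusted p = 0.00328). Over both states of that line it was -0.25 (adjusted p = 0.530). After the open field the 5 GABA-CB1-KO libraries ran from 37.9 through a median of 40.68 to 81.6 CPM of Bok, the highest being replicate 1. The 7 WT libraries ran from 40.74 to 52.2 CPM, and 3 of 5 KO libraries lay below all of them. The part of replicate 1 in the value over both states was not tested. The median log2 fold changes of the CA3 list were -0.05 and -0.09 in the Glu-CB1 line, basal and open field, and 0.07 and 0.04 in the GABA-CB1 line. Of 10 further CA2 markers, edgeR called 0 in the 4 KO comparisons. At an unadjusted p under 0.05 there were 2, 2, 3 and 3 in the same order, against the same shares of all genes. The list medians were -0.01 and -0.06 in the Glu-CB1 line and -0.07 and 0.16 in the GABA-CB1 line. Fgf5, a fibroblast growth factor, fell by 0.29 on the log2 scale (SE 0.06, edgeR adjusted p = 0.0203) after the open field in the GABA-CB1 line, and by 0.27 (adjusted p = 0.110) without the libraries that stood apart. Ptpn5, the striatal-enriched tyrosine phosphatase, gave a KO effect in the Glu-CB1 line 0.31 above that in the GABA-CB1 line in the basal state (SE 0.07, edgeR adjusted p = 0.0353), opposite in sign to Plekhg1, a call lost in 11 of 24 fits that left out 1 library, with a highest adjusted p of 0.0837 without Glu-CB1-WT basal replicate 5. Stard5, a sterol-binding transfer protein, differed among the 8 groups (edgeR adjusted p = 7.15e-06), with the highest mean of 23.1 CPM in GABA-CB1-KO open field, where its 21.3 to 24.3 CPM did not overlap the 15.7 to 20.0 CPM of the WT libraries. Bok (adjusted p = 0.0328) and Ptpn5 (adjusted p = 0.04996) passed the same test, Ptpn5 at the threshold and in only 15 of 48 fits that left out 1 library.

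Among themselves the 7 genes did not vary as 1 unit. After the mean of each group had been subtracted from the log2 CPM, Necab2 and Amigo2 rose and fell together over the 48 libraries (Pearson r = 0.59, Spearman rho = 0.57), as did Pcp4 and Map3k15 (r = 0.60, rho = 0.57), Rgs14 and Map3k15 (r = 0.50, rho = 0.51) and Plekhg1 and Map3k15 (r = 0.48, rho = 0.46). Necab2 ran against Plekhg1 (r = -0.36, rho = -0.38) and against Pcp4 (r = -0.35, rho = -0.30). The neighbours Iyd and Plekhg1 had an r of 0.21 and a rho of 0.24. Leaving out the 2 libraries farthest from the median of the first gene gave 0.58 for Necab2 and Amigo2, 0.51 for Pcp4 and Map3k15 and 0.11 for Iyd and Plekhg1. The 21 pairs are given as a description. All points share library depth, scaling and the makeup of the dissected tissue.

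**Figure D4:**
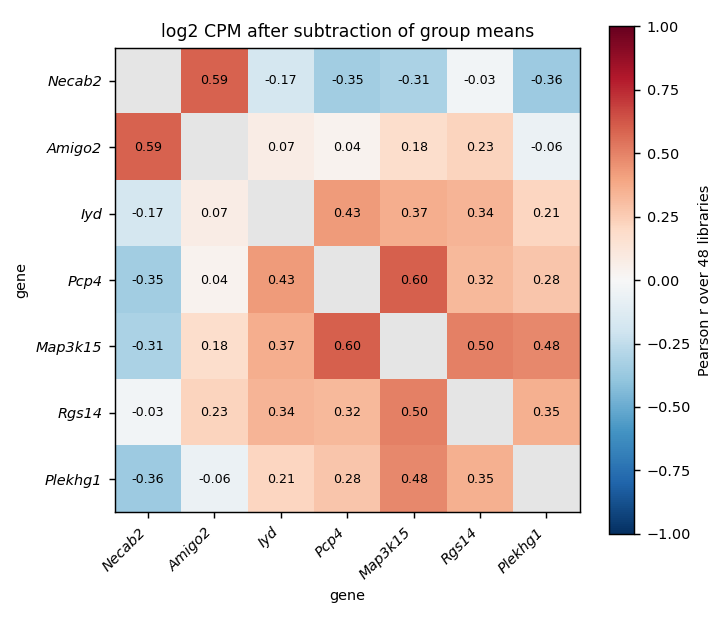
Pearson r between each pair of marker genes (both axes, colour from -1 to 1) over 48 libraries, computed on log2 CPM after the mean of each of the 8 groups had been subtracted. Pcp4 with Map3k15 (0.60) and Necab2 with Amigo2 (0.59) are the highest pairs, and Necab2 with Plekhg1 (-0.36) is the lowest.

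The members also followed different field markers in the same 48 libraries. Pcp4 rose with the dentate granule cell sum (r = 0.73, rho = 0.62) and Necab2 fell with it (r = -0.71, rho = -0.67). Iyd followed the other CA2 markers (r = 0.64, rho = 0.58) and the other CA3 markers (r = 0.56, rho = 0.54) and ran against the CA1 sum (r = -0.54, rho = -0.48). Map3k15, Pcp4 and Amigo2 also ran against the CA1 sum (r = -0.53, -0.47 and -0.44). For Rgs14, Plekhg1 and Necab2 that r was -0.29, -0.16 and -0.004. Necab2 and Amigo2 followed the other CA3 markers (r = 0.55 and 0.48), while Pcp4, Map3k15 and Plekhg1 did not (r = -0.10, -0.08 and -0.22). The highest r of Plekhg1 with a list was with the thalamus and habenula sum (0.40), then the oligodendrocyte sum (0.39). Both came mainly from the GABA-CB1 line (0.60 and 0.55, against 0.06 and 0.05 in the Glu-CB1 line). Rgs14, the best known CA2 marker of the set, followed the other CA2 markers at an r of 0.50 and the other CA3 markers at 0.19. For Rgs14 and the CA2 markers, rho was 0.38, and r was 0.37 without the 2 libraries farthest from the median of Rgs14. Map3k15, Plekhg1, Pcp4, Amigo2 and Necab2 had a lower r with the CA2 markers, at 0.31, 0.30, 0.19, 0.19 and 0.18. Nr3c2 and Ptpn5, at means of 210 and 157 CPM, made up most of the CA2 sum, whose median was 430 CPM. These values are descriptions over libraries that may differ in how much of each field they hold.

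Over all genes that passed the filter, the pattern nearest to each member on the same measure differed from gene to gene. For Iyd the 3 nearest genes were Trhde, which encodes a peptidase that degrades thyrotropin-releasing hormone, at an r of 0.90, the CA3 marker Trps1 at 0.87 and Ano3 at 0.86. For Necab2 they were Lnx1 (0.87), the serotonin receptor gene Htr7 (0.82) and Nkd2 (0.78). For Pcp4 they were Btbd3 (0.80), Npnt (0.77) and Fam163b (0.76). For Map3k15 they were Acan (0.77), which encodes the perineuronal net proteoglycan aggrecan, Tbcel (0.70) and Adamts1 (0.66). For Amigo2 they were Lsm11 (0.74), Mpp3 (0.71) and Vit (0.71), and for Rgs14 they were Camta2 (0.73), Tecpr1 (0.72) and Dgkz (0.72). For Plekhg1, whose highest r was the lowest of the 7 members, they were Kalrn at 0.68, Rell1 at 0.67 and the sodium channel subunit gene Scn4b at 0.65. No other member was among the 3 nearest genes of any member.

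Around Iyd and Plekhg1, 7 further genes within 1000000 bases on either side passed the filter, Ppp1r14c, Mthfd1l, Akap12, Zbtb2, Armt1, Ccdc170 and Esr1, a set looked at after the values of the pair had been seen. In the Glu-CB1 line after the open field their log2 fold changes ran from -0.17 (Ppp1r14c, SE 0.07, edgeR adjusted p = 0.604) to 0.21 (Ccdc170, SE 0.31), and 0 of 7 were called in either state. In the basal state they ran from -0.17 (Mthfd1l, SE 0.18) to 0.02 (Akap12, SE 0.08). Of the other members, Necab2 lies on chromosome 8 from 119446719 to 119472635, Rgs14 on 13 from 55369732 to 55384687, Pcp4 on 16 from 96467606 to 96525793, Amigo2 on 15 from 97244074 to 97247287 and Map3k15 on X from 159988433 to 160123351. Pcp4 overlaps BC002163 on its own strand, Amigo2 overlaps Pced1b on the other strand and Mir3473a on its own, and Map3k15 overlaps Pdha1 on the other strand. Reads were counted by strand. Whether the libraries kept the strand was not tested, so the assignment of a read is uncertain at overlaps on either strand.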

How the data were processed

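The deposited values were raw read counts per gene. The authors trimmed the reads, aligned them to mm10 with STAR 2.6.0a and counted them by strand with featureCounts 1.6.2, versions as in the submitters' processing notes, from cDNA amplified before library preparation. The 7 members and all marker lists were chosen with earlier results of these data known. Groups followed the sample labels. edgeR 4.0.16 (R 4.3.3, limma 3.58.1) was run on these counts with TMM scaling, filterByExpr (minimum count 10, minimum total 15), quasi-likelihood F tests and Benjamini-Hochberg adjustment over all genes tested, with calls at an adjusted p under 0.05. Each KO comparison used its own 12 libraries, and 12 comparisons were made. The standard error was the log2 fold change divided by the square root of F. Levels were TMM-scaled CPM over 48 libraries, and log2 CPM for correlations used a prior count of 2. Genes named beyond the members included the called members of the other CA3 and CA2 lists and the 3 genes most like each member. DESeq2 1.42.0, RLE scaling, other filters, other sets of libraries, covariates, a replicate block and leaving out each library were the alternatives. The steps were tested on simulated data. Totals of 25892654 to 34091080 counts set the precision, and amplification means that counts are not independent molecules.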

Additional observations from a re-analysis of the deposited data

Results flagged for a closer look

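Of 56 levels examined (7 genes in 8 groups), 2 had a library far from the rest of its group by Dixon's ratio, where chance gives about 1 in 20. Necab2 stood at 94.2 CPM in GABA-CB1-KO basal replicate 3, the Rn45s-rich library, below the other 5 libraries of its group. Pcp4 stood at 51.6 CPM in GABA-CB1-WT open field replicate 4, above the other 6 libraries of its group and below all 5 KO libraries. The KO effect on Plekhg1 differed between the lines in the basal state by -0.45 on the log2 scale (edgeR adjusted p = 0.0237).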

How the results depend on the processing

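No fold change that passed the test changed its sign under any alternative. In the Glu-CB1 open field comparison, edgeR called 2 members, and the number was 1 with the 24 libraries of the line or all 48 libraries in 1 fit, 0 with the animal number range, the CA1 sum or the thalamus and habenula sum as a covariate, and 0 to 1 with 1 library left out. The cause was not tested. In the Glu-CB1 basal comparison it was 0, against 1 by DESeq2, 1 with the 24 libraries and 0 to 1 with 1 library left out. In the GABA-CB1 open field comparison it was 0, against 2 by DESeq2 and 1 with the dentate sum. For the difference between the lines it was 1 in the basal state, 0 with all 48 libraries in 1 fit or the animal number range and 0 to 1 with 1 library left out. After the open field it was 0, against 2 by DESeq2, 1 with both states averaged, 1 with the dentate sum and 0 to 1 with 1 library left out. Among the 8 groups it was 1, against 3 by DESeq2, 2 with the dentate sum and 1 to 2 with 1 library left out. The fits over both states, the dentate sum and the fit without the 4 libraries that stood apart were chosen after seeing the data. Under the alternatives, 49 of 871 fold changes of the members changed sign, 0 of them values that had passed the test, and 12 results lost and 10 gained a call.

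With the replicate number as a block, the Glu-CB1 open field comparison called 0 members (Iyd -0.61, adjusted p = 0.301, and Plekhg1 -0.43, adjusted p = 0.331). Deviations of same-numbered libraries correlated at -0.335 to 0.317, so the numbers were not taken to pair the samples. DESeq2 gave no adjusted p for some low members. Iyd and Map3k15 rest on 126 to 431 and 140 to 333 counts a library, and groups of 5 to 7 mice limit every test.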
